A study of Mus musculus with 13 samples.

Results

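Macrophage and myeloid transcripts were followed in mouse melanomas through 11 Affymetrix probe sets of 10 genes: Csf1r (1419873_s_at and 1423593_a_at), Cd68 (1449164_at), Adgre1 (1451161_a_at), C1qa (1417381_at), C1qb (1417063_at), C1qc (1449401_at), Lyz2 (1423547_at), Tyrobp (1450792_at), Fcer1g (1418340_at) and Cd14 (1417268_at). They were chosen by identifier and not by their values, though with earlier results of these data known. All 11 were found among the 22690 probe sets of the deposited table, of which 64 are Affymetrix controls and the other 22626 were tested. Each of 13 cutaneous melanomas was hybridized to its own array. The tumors were 6 ARF-deficient melanomas (5 ARF heterozygous and 1 ARF null) and 7 INK4a-deficient melanomas (4 INK4a null and 3 INK4a heterozygous). ARF and INK4a are the 2 proteins encoded by Cdkn2a. The question was how melanomas of mice deficient in the one differ from melanomas of mice deficient in the other. Deficient includes heterozygous here, and the sources used here do not say whether heterozygous tumors had lost the remaining allele. Mice of both genotypes carried an HGF/SF transgene driven by a metallothionein promoter, had a background of about 90% FVB/N and 10% C57BL/6, and received UV once, at 3.5 days of age. No tumor with both loci intact and no normal skin was among the arrays, and the sources used here do not give the age of the mice at tumor collection. Sample titles put Ink4a beside the 6 tumors whose genotype label is ARF, and tumors were grouped by the genotype label.

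Macrophages enter tumors from blood monocytes and from cells resident in the skin. They depend on the CSF1 receptor for survival, clear debris and immune complexes through Fc and complement receptors, and make the recognition subunit of complement. In skin tumors they are often among the most frequent leukocytes. The genes followed here fall into receptors of growth and bacterial signals (Csf1r, Cd14), surface and lysosomal markers (Adgre1, a classic surface marker of mouse macrophages, and Cd68), secreted products (Lyz2, a lysozyme, and the C1q chains) and the membrane adaptors Tyrobp (DAP12) and Fcer1g (the Fc receptor gamma chain), which carry activating motifs for receptors that have none. Several of these genes are not confined to macrophages: Lyz2 and Cd14 are also made by neutrophils and monocytes, Tyrobp by natural killer cells and Fcer1g by mast cells. The table pairs no probe set with a gene, so markers of melanocytes, of other leukocytes and of stroma are not analysed here, and neither the labelled tissue nor the macrophage origin of these transcripts could be checked against other markers.

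The deposited values are logarithms centred so that each probe set has a median of 0 over the 13 tumors. A value is therefore relative to the middle tumor, differences between tumors can be read, and levels of different genes cannot be compared. The base of the logarithm is unstated, and 2 was assumed. The sources used here name no sorting of cells before RNA was isolated from the melanomas, nor which part of a tumor was taken. Fewer macrophages and less RNA of these genes per macrophage therefore cannot be told apart. Since no label ties a tumor to a mouse, the p-values reflect how far these tumors spread and may count mice more than once.

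The sequence just before the transcription start is shown for the genes found in the RefSeq promoter table for GRCm38.p6, 5 of the 10. Whether promoter sequence has a part in how these probe sets varied was not tested. Each run is the 250 bases before the start, on the gene's own strand, which is the minus strand for all 5. The windows lie at chr4:136886201-136886450 for C1qb, chr4:136892915-136893164 for C1qc (overlapping the outermost bases of that gene's annotated span), chr10:117282273-117282522 for Lyz2, chr11:69666171-69666420 for Cd68 and chr1:171234350-171234599 for Fcer1g. Capitals mark the hexamers GAGGAA and AGGAAG on either strand. Both hold the GGAA core that ETS factors bind, among them PU.1, a factor that myeloid cells need, and the hexamers share 5 bases, so that matches can overlap.
C1qb: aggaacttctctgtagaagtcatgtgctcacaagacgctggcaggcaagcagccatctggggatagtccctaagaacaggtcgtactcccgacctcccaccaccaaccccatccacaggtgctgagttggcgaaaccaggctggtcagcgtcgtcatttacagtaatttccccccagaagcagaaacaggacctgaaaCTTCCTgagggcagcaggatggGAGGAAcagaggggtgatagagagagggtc
C1qc: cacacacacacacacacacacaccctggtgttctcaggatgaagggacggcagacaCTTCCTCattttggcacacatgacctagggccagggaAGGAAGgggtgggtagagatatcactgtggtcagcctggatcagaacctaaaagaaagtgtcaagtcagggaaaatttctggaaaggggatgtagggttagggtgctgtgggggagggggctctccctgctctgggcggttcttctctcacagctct
Lyz2: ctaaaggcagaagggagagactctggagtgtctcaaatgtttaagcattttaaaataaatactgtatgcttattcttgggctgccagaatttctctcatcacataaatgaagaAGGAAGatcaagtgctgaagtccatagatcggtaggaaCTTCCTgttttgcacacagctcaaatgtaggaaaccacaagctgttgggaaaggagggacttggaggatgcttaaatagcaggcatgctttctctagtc
Cd68: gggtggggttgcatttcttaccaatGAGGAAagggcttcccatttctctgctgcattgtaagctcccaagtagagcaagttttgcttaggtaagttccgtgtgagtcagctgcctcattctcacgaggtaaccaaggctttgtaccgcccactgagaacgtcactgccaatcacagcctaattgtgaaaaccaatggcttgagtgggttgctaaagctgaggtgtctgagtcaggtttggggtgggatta
Fcer1g: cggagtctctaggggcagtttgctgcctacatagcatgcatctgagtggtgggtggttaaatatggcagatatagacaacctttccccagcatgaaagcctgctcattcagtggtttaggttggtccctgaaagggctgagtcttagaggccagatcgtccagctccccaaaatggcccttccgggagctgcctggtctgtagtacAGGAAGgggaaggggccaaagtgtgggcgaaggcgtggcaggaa
C1qb held GAGGAA and, on the other strand, AGGAAG. C1qc held AGGAAG on both strands, with GAGGAA overlapping the match on the other strand. Lyz2 held AGGAAG on both strands, Cd68 GAGGAA once and Fcer1g AGGAAG once. Of the 32851 promoter entries in the table, 23.3% held GAGGAA, 29.5% held AGGAAG and 39.2% held either in the same 250 bases. The hexamers were picked with these sequences in view. A match is a description of letters, and binding was not measured.

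The myeloid probe sets were among the more variable on the arrays and moved together from tumor to tumor. The mean of the 11 was highest in ARF null tumor 10, at 0.67, with all 11 above 0. It was nearly as high in INK4a null tumor 7.2, at 0.64, also with all 11 above 0. INK4a null tumor 1.2 had the lowest mean, -1.22, and INK4a null tumor 2.2 the next, -0.72, both with all 11 below 0. The highest and lowest INK4a-deficient tumors were thus all INK4a null.

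Among the other ARF-deficient tumors the mean was 0.61 in ARF heterozygous tumor 12, 0.50 in tumor 9, 0.08 in tumor 8, -0.15 in tumor 14 and -0.40 in tumor 13. INK4a null tumor 3 stood at -0.02, and the INK4a heterozygous tumors at 0.46 (tumor 15), -0.36 (tumor 5.2) and -0.36 (tumor 6.2). The high value of tumor 15 rested in part on Cd14: without Cd14 its mean was 0.20. No other tumor's mean moved as far when Cd14 was left out.

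**Figure D1:**
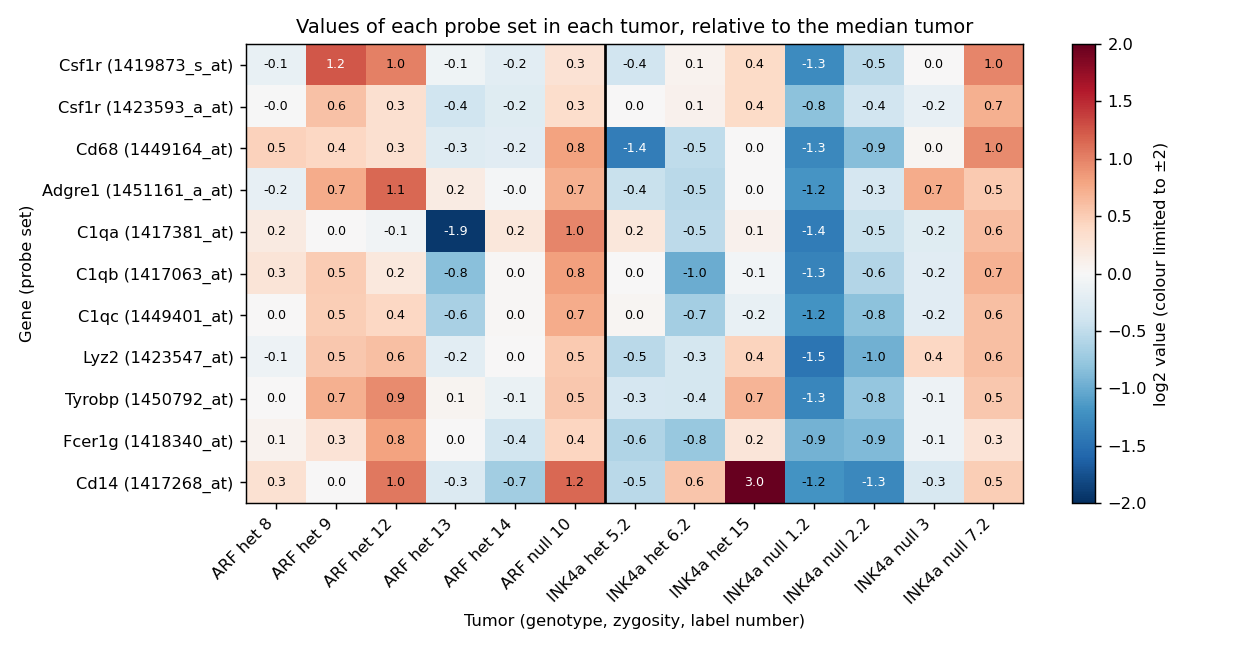
Log2 value of each of the 11 probe sets (down) in each of the 13 tumors (across), relative to that probe set's median tumor, with ARF-deficient tumors left of the black line and INK4a-deficient tumors right of it. Whole columns are red in ARF null tumor 10 and INK4a null tumor 7.2 and blue in INK4a null tumors 1.2 and 2.2, and 2 cells stand apart, C1qa at -1.93 in ARF heterozygous tumor 13 and Cd14 at 3.05 in INK4a heterozygous tumor 15.

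Over the 13 tumors the SD of the 11 probe sets ran from 0.44 (Csf1r, 1423593_a_at) to 1.15 (Cd14), with a median of 0.66, against a median of 0.27 over all 22626 probe sets. Cd14 stood at the 96.7th percentile of SD, C1qa at the 91.5th and Cd68 at the 90.3rd, and the second Csf1r probe set, the lowest of the 11, at the 75.1st. Tumor 1.2 was the lowest tumor for 8 of the 11 probe sets. The exceptions were Cd68, lowest in INK4a heterozygous tumor 5.2 (-1.39), C1qa, lowest in ARF heterozygous tumor 13 (-1.93), and Cd14, lowest in INK4a null tumor 2.2 (-1.29). The highest tumor varied more: ARF null tumor 10 for the C1q genes, ARF heterozygous tumor 12 for Adgre1, Tyrobp and Fcer1g, INK4a null tumor 7.2 for Cd68, Lyz2 and 1 Csf1r probe set, ARF heterozygous tumor 9 for the other Csf1r probe set and INK4a heterozygous tumor 15 for Cd14.

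All 55 pairs of the 11 probe sets correlated positively over the 13 tumors, with a median Pearson r of 0.78 and a range of 0.39 to 0.97. Over all pairs of the 22626 probe sets, the median r was 0.03, and 0.769% of pairs reached 0.78. Within genotypes the median among the 11 was 0.71 (6 ARF-deficient tumors) and 0.81 (7 INK4a-deficient tumors), and Spearman's rho over all 13 had a median of 0.73. All pairs come from the same 13 arrays, and the probe sets were put together as macrophage genes, so these values describe how tightly the set moved and are no test. Without tumor 1.2, the lowest for most genes, the median r was 0.68.

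Tyrobp and Lyz2 followed the rest most closely, each with r = 0.95 against the mean of the other 10 probe sets. Tyrobp and Fcer1g, the adaptors, correlated at r = 0.94 with each other, and Lyz2 at 0.94 with Tyrobp and 0.89 with Adgre1. The 2 Csf1r probe sets had r = 0.91 with each other. Csf1r correlated with Tyrobp at 0.92 (1419873_s_at) and 0.86 (1423593_a_at). Cd14 followed the others least, with r = 0.60 against their mean and a median of 0.55 over its 10 pairs, and C1qa was next, at r = 0.64.

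The C1q genes encode the A, B and C chains that assemble into 1 complement protein. Of all 55 pairs of probe sets, C1qb and C1qc had the highest r. The C1q genes lie side by side on chromosome 4 between 136880126 and 136898844 in GRCm38.p6. No other gene of the annotation lies wholly within these 18.7 kb. C1qb and C1qc had r = 0.97, C1qa and C1qb 0.86 and C1qa and C1qc 0.81. C1qa had a median r of only 0.49 with the 8 probe sets of other genes, whereas C1qb and C1qc had 0.77. Within the 7 INK4a-deficient tumors the median for C1qa was 0.77, and within the 6 ARF-deficient tumors it was 0.36.

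**Figure D2:**
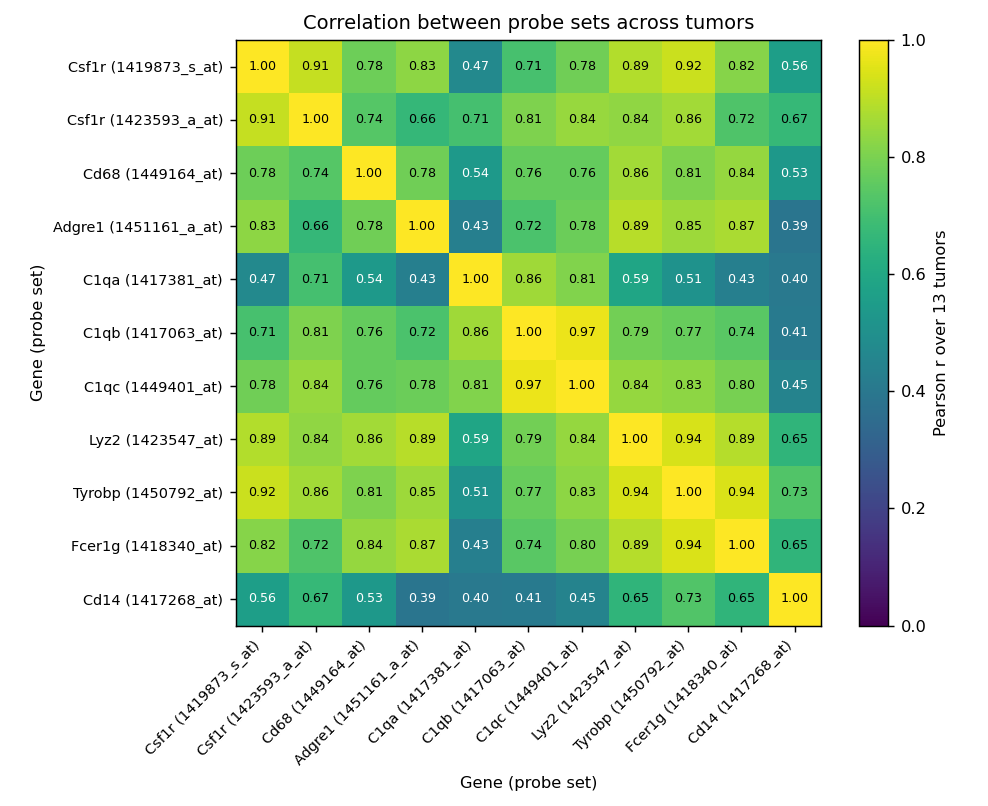
Pearson r over the 13 tumors between each pair of the 11 probe sets, from 0 (dark) to 1 (yellow). The block from Lyz2 to Fcer1g is between 0.89 and 0.94, the C1q block between 0.81 and 0.97, and the rows of C1qa and Cd14 are the darkest.

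The means of the C1q chains and of the other 8 probe sets had r = 0.74 over 13 tumors. Without INK4a null tumors 1.2 and 2.2, the lowest in the mean of the others, it was 0.55. The 2 means parted most in ARF heterozygous tumor 13, where C1q averaged -1.14 and the others -0.12. In that tumor C1qa was at -1.93, C1qb at -0.83 and C1qc at -0.64, while the other 8 probe sets lay between -0.40 and 0.16. C1q was lower than the others by 0.69 in INK4a heterozygous tumor 15, where Cd14 raised the mean of the others, and by 0.58 in ARF heterozygous tumor 12. It was higher by 0.62 in INK4a heterozygous tumor 5.2, where Cd68 was at -1.39. In INK4a heterozygous tumor 6.2 C1q averaged -0.73 and the others -0.23. The mean of C1q minus the others was -0.19 ± 0.52 in ARF-deficient tumors (SD, n = 6) and -0.12 ± 0.43 in INK4a-deficient tumors (SD, n = 7).

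**Figure D3:**
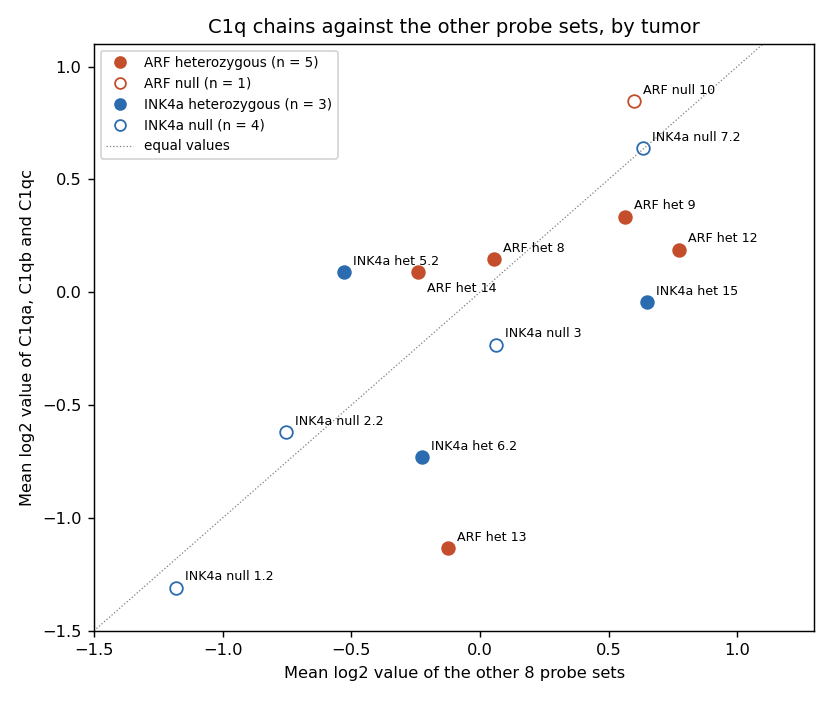
Mean log2 value of the 3 C1q probe sets (vertical) against that of the other 8 probe sets (horizontal) in each of the 13 tumors, by genotype and zygosity, with a dotted line where both are equal. ARF heterozygous tumor 13 lies farthest below the line (-1.14 against -0.12) and INK4a heterozygous tumor 5.2 farthest above it (0.09 against -0.53).

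A sign of RNA quality differed among these tumors. The 3' control probe set of beta-actin was set against the 5' one as a log2 ratio. This ratio, which is higher where RNA is shorter, was itself relative to the middle tumor and was highest in ARF heterozygous tumor 13 (1.49), followed by ARF heterozygous tumor 9 (1.09), INK4a null tumor 7.2 (0.94) and ARF heterozygous tumor 12 (0.81). It averaged 0.48 ± 0.76 in ARF-deficient tumors (SD, n = 6) and -0.04 ± 0.55 in INK4a-deficient tumors (SD, n = 7). With the mean of the 11 probe sets it had r = 0.35 over 13 tumors, -0.17 among ARF-deficient and 0.56 among INK4a-deficient tumors. Without ARF heterozygous tumors 9 and 13 that r was 0.53 over all tumors. With single probe sets the ratio had r from -0.23 (C1qa) to 0.65 (Adgre1) over 13 tumors. Its r with C1q minus the others was -0.47 over all tumors, -0.89 among the 6 ARF-deficient and 0.08 among the 7 INK4a-deficient tumors, and -0.19 over all tumors without ARF heterozygous tumors 9 and 13. The part of RNA quality in the low C1q values of tumor 13 was not tested.

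Set against INK4a-deficient melanomas, ARF-deficient melanomas had higher means of the myeloid probe sets, by amounts within the spread between tumors. The difference of means was above 0 for all 11, from 0.13 for 1 Csf1r probe set (1423593_a_at) to 0.69 for Cd68, with a median of 0.52. It was above 0 for 8 of the 11 without INK4a null tumor 1.2, 9 without ARF null tumor 10, and 10 without INK4a null tumor 2.2 or ARF heterozygous tumor 12, or with zygosity as covariate. With the beta-actin ratio as covariate, which averaged 0.48 in ARF-deficient and -0.04 in INK4a-deficient tumors, all 11 were above 0 with a median of 0.33. Over 1.5 times lower in that fit were Adgre1 (0.33), Lyz2 (0.31) and Csf1r (0.18 on 1419873_s_at and 0.05 on 1423593_a_at), and over 1.5 times higher were C1qa (0.33) and Cd14 (0.24). Over all 22626 probe sets the median difference was 0.01 and 52.4% lay above 0. As the 11 vary together, their common sign is not 11 separate observations. The mean of the 11 was 0.22 ± 0.44 over the ARF-deficient tumors (SD, n = 6) and -0.23 ± 0.65 over the INK4a-deficient tumors (SD, n = 7). In INK4a-deficient tumors with a decimal ending this mean was -1.22 (tumor 1.2), -0.72 (tumor 2.2), -0.36 (tumor 5.2), -0.36 (tumor 6.2) and 0.64 (tumor 7.2). In those without the ending it was -0.02 (tumor 3) and 0.46 (tumor 15). After adjustment over all probe sets in limma, none of the 11 had a p under 0.05 (the smallest was 0.891), nor had any of the 22626 (0%). At an unadjusted p under 0.05, 1 of the 11, Fcer1g, was counted in limma, against 4.93% of all probe sets. For every one of the 11 the values of both genotypes overlapped. The share of all probe sets with such an overlap is not given here, so this is no trait particular to the 11.

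**Figure D4:**
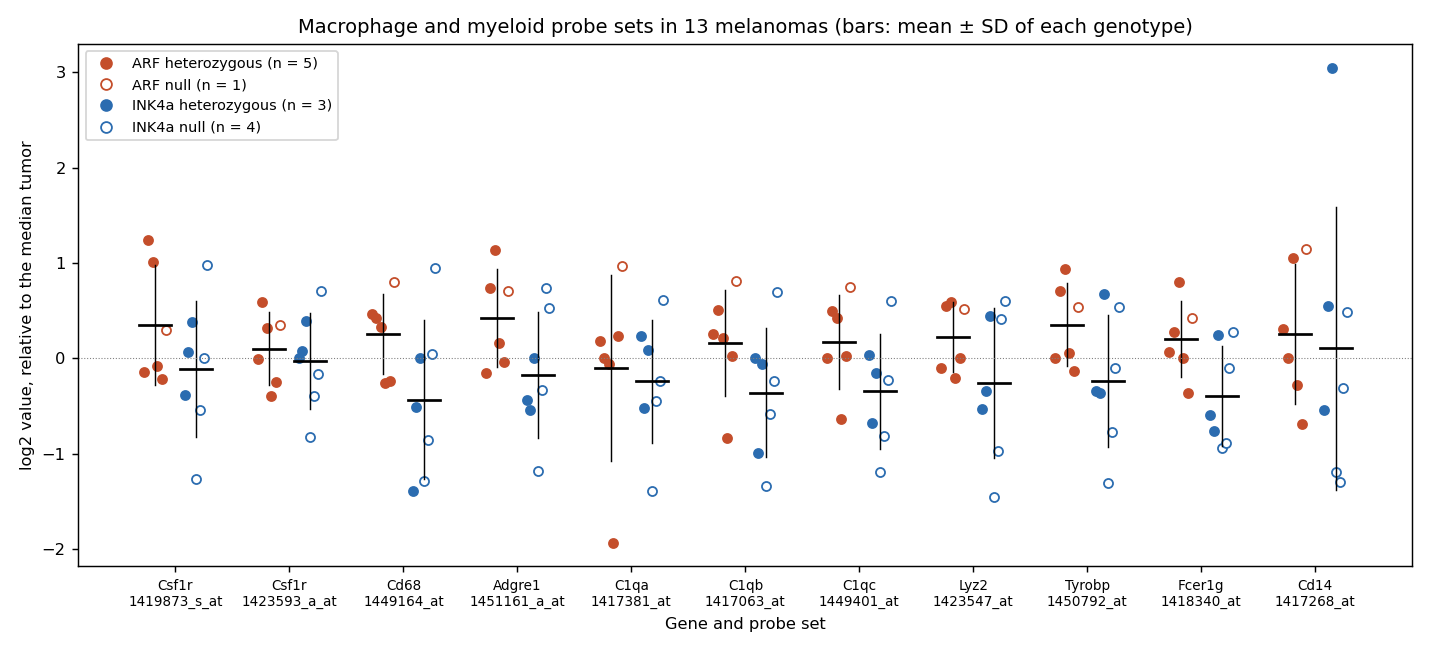
Log2 value of each probe set in each tumor, relative to the median tumor, with ARF-deficient tumors (red) left of INK4a-deficient tumors (blue), heterozygous tumors as filled and null tumors as open circles, and black bars for the mean and SD of each genotype (n = 6 and n = 7). The genotypes overlap for every probe set, and the mean is higher in ARF-deficient tumors for all 11, from a difference of 0.13 to one of 0.69.

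Fcer1g, the gamma chain through which Fc receptors for IgG and IgE signal, ran from -0.36 through a median of 0.17 to 0.80 in ARF-deficient tumors. In INK4a-deficient tumors it ran from -0.95 through -0.60 to 0.28. Most INK4a-deficient tumors were thus below most ARF-deficient ones, with INK4a null tumor 7.2 and INK4a heterozygous tumor 15 above 0. The difference was 0.60 (standard error 0.25, 95% interval 0.06 to 1.13, limma adjusted p = 0.891). The exact permutation test of the means, two-sided over 1716 splits, gave p = 0.0478, and the exact Mann-Whitney test that the methods name gave p = 0.0734. Tyrobp, the adaptor of TREM2 and other activating receptors, ran from -0.13 through 0.30 to 0.94 in ARF-deficient tumors and from -1.30 through -0.34 to 0.67 in INK4a-deficient tumors. Its difference was of the same size, 0.59 (standard error 0.31, exact permutation p = 0.104), with an interval that reached -0.08.

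Cd68, a glycoprotein of macrophage lysosomes and endosomes, had the largest difference of the 11. It ran from -0.25 through 0.37 to 0.80 in ARF-deficient tumors and from -1.39 through -0.51 to 0.95 in INK4a-deficient tumors. The highest tumor of all for Cd68 was INK4a null tumor 7.2, so the ranges overlapped over the whole ARF-deficient range. Cd68 averaged 0.25 ± 0.42 over ARF-deficient tumors (SD, n = 6) and -0.43 ± 0.83 over INK4a-deficient tumors (SD, n = 7), a difference of 0.69 (standard error 0.35, 95% interval -0.07 to 1.44, exact permutation p = 0.0962). Adgre1, an adhesion receptor, ran from -0.16 through 0.43 to 1.14 in ARF-deficient tumors and from -1.19 through -0.33 to 0.74 in INK4a-deficient tumors. The difference was 0.60 (standard error 0.31, 95% interval -0.07 to 1.27, exact permutation p = 0.0997).

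Lyz2, which encodes the lysozyme of macrophages and neutrophils, ran from -0.20 through 0.26 to 0.60 in ARF-deficient tumors and from -1.46 through -0.35 to 0.60 in INK4a-deficient tumors. Both genotypes thus ended at the same height, and the difference of 0.49 (standard error 0.33, exact permutation p = 0.199) came with low values in INK4a null tumors 1.2 and 2.2 (-1.46 and -0.97). Without tumor 1.2 it was 0.29. Lyz1 is a near-identical paralog in mice, and whether this probe set reads it was not tested.

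Csf1r, the receptor for CSF1 and IL-34, was read by 2 probe sets that differed in the size of the contrast. On 1419873_s_at the values ran from -0.21 through 0.11 to 1.25 in ARF-deficient tumors and from -1.26 through 0.00 to 0.98 in INK4a-deficient tumors, a difference of 0.46 (standard error 0.35, exact permutation p = 0.243). That difference was 0.27 without INK4a null tumor 1.2, 0.28 without ARF heterozygous tumor 9 and 0.28 after quantile normalization. On 1423593_a_at they ran from -0.40 through 0.16 to 0.59 in ARF-deficient tumors and from -0.83 through 0.00 to 0.71 in INK4a-deficient tumors, a difference of 0.13 (standard error 0.24, exact permutation p = 0.605) that ranged from -0.00012 without INK4a null tumor 1.2 to 0.26 without INK4a null tumor 7.2. The suffix of the first marks a probe set shared by transcripts of more than 1 gene and that of the second one shared by transcripts of the same gene. The largest gap between them within a tumor was in ARF heterozygous tumors 12 (1.01 and 0.32) and 9 (1.25 and 0.59), in the order given above.

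C1qb and C1qc gave nearly the same difference. C1qb ran from -0.83 through 0.23 to 0.82 in ARF-deficient tumors and from -1.34 through -0.23 to 0.70 in INK4a-deficient tumors, a difference of 0.52 (standard error 0.33, exact permutation p = 0.16). C1qc ran from -0.64 through 0.22 to 0.75 in ARF-deficient tumors and from -1.19 through -0.23 to 0.61 in INK4a-deficient tumors, also a difference of 0.52 (standard error 0.29, exact permutation p = 0.113). ARF heterozygous tumor 13 was the lowest ARF-deficient tumor for both. C1qa differed by only 0.14 (standard error 0.42, exact permutation p = 0.762), with values from -1.93 through 0.09 to 0.97 in ARF-deficient tumors and from -1.39 through -0.24 to 0.61 in INK4a-deficient tumors. Without tumor 13 the C1qa difference was 0.50, close to the differences of the other chains with all tumors, and those of C1qb and C1qc were 0.72 and 0.68 without it.

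Cd14, the co-receptor that hands bacterial lipopolysaccharide to TLR4, had the widest spread. It ran from -0.69 through 0.15 to 1.15 in ARF-deficient tumors and from -1.29 through -0.32 to 3.05 in INK4a-deficient tumors. The top value was that of INK4a heterozygous tumor 15, which at base 2 is 8.28 times the middle tumor, and the next INK4a-deficient tumor stood at 0.55. The other 10 probe sets in tumor 15 lay between -0.15 and 0.67. The difference between genotypes was 0.15 (standard error 0.62, 95% interval -1.19 to 1.49, exact permutation p = 0.845), and without tumor 15 it was 0.64.

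The count at an unadjusted p under 0.05 changed with the processing and with single tumors. The count over all 22626 probe sets, 1115 in the limma fit above, also changed and is given in brackets. With all tumors kept, the count among the 11 was 0 after quantile normalization (1117) and with array weights (1293). It was also 0 with the beta-actin ratio as covariate (664) and in the exact Mann-Whitney test (782), and 2 with zygosity as covariate (1708). On leaving out a tumor it was 6 of 11 without INK4a null tumor 7.2 (1609) and 3 without ARF heterozygous tumor 13 (676). It was 2 without ARF heterozygous tumor 8 (1772), INK4a null tumor 3 (1807) or INK4a heterozygous tumor 15 (973). It was 0 (810 to 1363) on leaving out any of INK4a null tumors 1.2 and 2.2, INK4a heterozygous tumors 5.2 and 6.2, ARF heterozygous tumors 9 and 12 and ARF null tumor 10. None of these fits brought any of the 11, or any other of the 22626, past the adjusted threshold.

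INK4a null melanomas (n = 4) were not shown to stand apart from INK4a heterozygous melanomas (n = 3) in these genes. Standard errors ran from 0.33 to 0.75, too wide to show that the groups were alike. The difference was below 0 for 9 of the 11 probe sets and above 0 for 2, with a median of -0.21, against a median of 0.04 over all probe sets, 58.1% of which lay above 0. None of the 11 passed the adjusted threshold in limma, against 9 of 22626 probe sets (0.0398%), and none had an unadjusted p under 0.05, against 13.1% of all probe sets. The INK4a null tumors held both extremes: their means over the 11 were -1.22, -0.72, -0.02 and 0.64, against -0.36, -0.36 and 0.46 in INK4a heterozygous tumors. Leaving out tumor 1.2 alone turned the median difference to 0.13.

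Cd68 and Adgre1 were the 2 with a higher mean in INK4a null tumors. Cd68 stood at -1.28, -0.85, 0.04 and 0.95 in INK4a null tumors, against -1.39, -0.51 and 0.00 in INK4a heterozygous tumors (difference 0.35, standard error 0.49). Adgre1 stood at -1.19, -0.33, 0.74 and 0.53 in INK4a null tumors, against -0.44, -0.54 and 0.00 in INK4a heterozygous tumors (difference 0.26, standard error 0.45). In both genes the null tumors reached below or near the lowest heterozygous tumor and above the highest.

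Cd14 had the largest difference of the 11 between these groups. It was -1.19, -1.29, -0.32 and 0.49 in INK4a null tumors, against -0.54, 0.55 and 3.05 in INK4a heterozygous tumors. The difference was -1.60 (standard error 0.75, 95% interval -3.26 to 0.06, limma p = 0.0578, adjusted p = 0.398), and the exact permutation test of the means, two-sided over 35 splits, gave p = 0.171. Without tumor 15 the difference was -0.58. With limma's array weights it was -2.99 and passed the threshold (adjusted p = 0.0195), in a fit that called 3239 of 22626 probe sets in place of 9; over the other alternatives the adjusted p of Cd14 lay between 0.117 and 0.824.

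Tyrobp followed at -0.40 (standard error 0.44, exact permutation p = 0.486), with -1.30, -0.77, -0.11 and 0.54 in INK4a null tumors, against -0.34, -0.36 and 0.67 in INK4a heterozygous tumors. Fcer1g differed by -0.04 (standard error 0.36) and C1qb by -0.01 (standard error 0.46), with intervals of -0.84 to 0.76 and -1.02 to 0.99.

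With zygosity held at heterozygous, ARF-deficient melanomas (n = 5) were set against INK4a-deficient melanomas (n = 3). The difference was above 0 for 8 of the 11 and below 0 for 3, with a median of 0.33, against a median of 0.04 over all probe sets, 57.3% of which lay above 0. These differences share their INK4a heterozygous tumors with the null against heterozygous ones, and most of their tumors with those between the genotypes. None of the 11 passed the adjusted threshold in limma, against 1 of 22626 probe sets (0.00442%), and none had an unadjusted p under 0.05, against 13.1% of all.

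Cd68 and Adgre1 again had the largest positive differences. Cd68 was 0.46, 0.42, 0.33, -0.25 and -0.23 in ARF heterozygous tumors, against -1.39, -0.51 and 0.00 in INK4a heterozygous tumors, a difference of 0.78 (standard error 0.47, exact permutation p = 0.0714 over 56 splits). Adgre1 was -0.16, 0.74, 1.14, 0.16 and -0.03 in ARF heterozygous tumors, against -0.44, -0.54 and 0.00 in INK4a heterozygous tumors, a difference of 0.70 (standard error 0.43, exact permutation p = 0.125). No INK4a heterozygous tumor was above 0 for either gene, while ARF heterozygous tumors lay on both sides. Fcer1g differed by 0.53 (standard error 0.35, exact permutation p = 0.196), and C1qb, C1qc, Lyz2, Tyrobp and the first Csf1r probe set by 0.31 to 0.38.

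The 3 with a lower mean in ARF heterozygous tumors were Cd14, C1qa and the second Csf1r probe set. Cd14 differed by -0.94 (standard error 0.72) and by 0.07 without INK4a heterozygous tumor 15. C1qa differed by -0.25 (standard error 0.53) and by 0.16 without ARF heterozygous tumor 13. The second Csf1r probe set differed by -0.10 (standard error 0.32), and by 0.01 without either of these tumors. With the ratio of the beta-actin probe sets as covariate, which was 0.60 ± 0.78 in ARF heterozygous tumors (SD, n = 5) and -0.40 ± 0.05 in INK4a heterozygous tumors (SD, n = 3), the median difference of the 11 was -0.08.

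**Figure D5:**
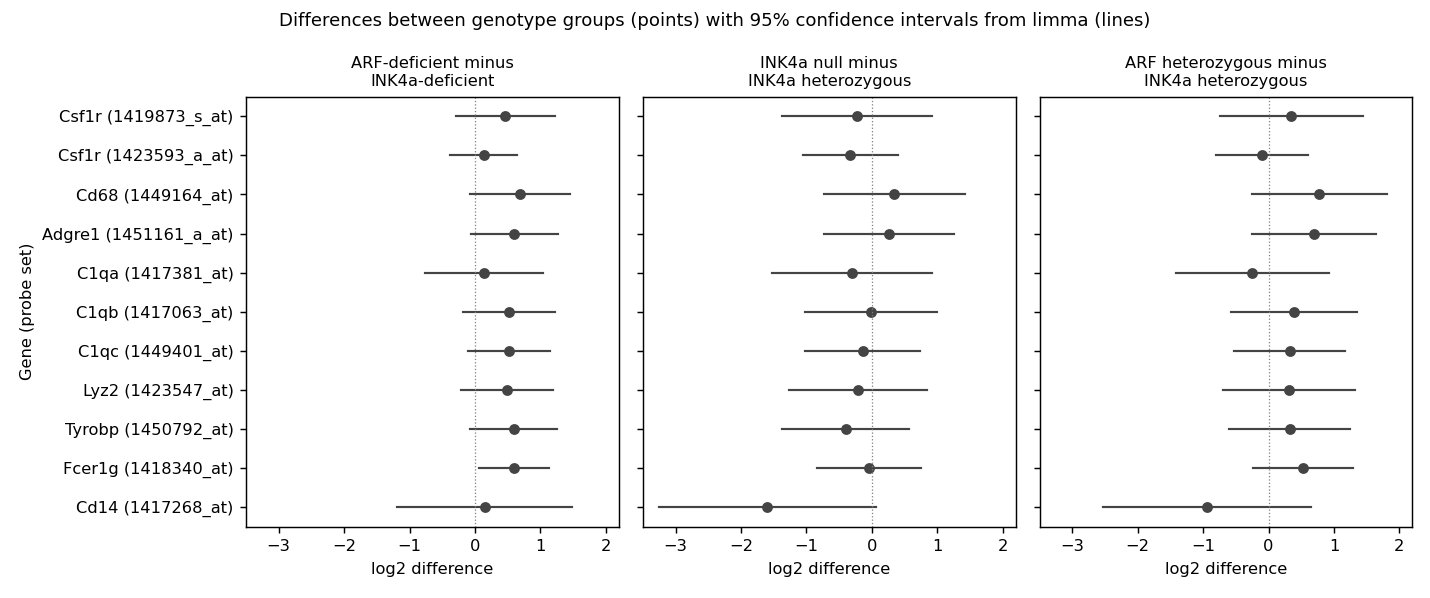
Difference of group means on the log2 scale (points) with 95% confidence intervals from limma (lines) for each probe set, in ARF-deficient minus INK4a-deficient, INK4a null minus INK4a heterozygous and ARF heterozygous minus INK4a heterozygous tumors. All points of the first panel lie above 0 and only the interval of Fcer1g (0.06 to 1.13) leaves out 0, and Cd14 is the widest and lowest in the other 2 panels (-1.60 and -0.94).

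Outside the set, 21 of the other 22615 probe sets (0.0929%) followed the mean of the 11 at an r over 0.90 across the 13 tumors. The closest was 1460343_at, with r = 0.96 (0.92 among ARF-deficient and 0.97 among INK4a-deficient tumors) and a narrow range from -0.25 to 0.23, and the next was 1448901_at, with r = 0.95 and a range from -2.04 to 1.66. The lowest were 1425819_at and 1453515_at, with r = -0.88 and -0.85. These were the extremes of all probe sets and are given as a description. Their genes are not named, as the files do not pair them. The first principal component of the other probe sets held 41.6% of the variance and had |r| = 0.46 with the mean of the 11, and the second held 16.6% and had |r| = 0.24. Without INK4a null tumor 1.2 and ARF heterozygous tumor 12, the farthest out on the first component, its |r| was 0.16. Without INK4a heterozygous tumors 15 and 6.2, the farthest out on the second, that of the second was 0.37.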

How the data were processed

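RNA of 13 mouse melanomas was measured on Affymetrix arrays, 1 tumor per array. The authors deposited log values, made in GeneSpringGX, for 22690 probe sets, and these were read as log2; all 22690 rows have a median of 0. The sources used here do not give the summarization or normalization, and the array named in the methods holds more probe sets than the table. The authors' second table, a list of selected probe sets with scores, was not used.

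The test across probe sets was limma's (version 3.58.1, R 4.3.3; moderated variances without trend, two-sided, Benjamini-Hochberg over the 22626 probe sets other than controls, threshold 0.05). ARF-deficient and INK4a-deficient tumors were compared with zygosities pooled, as in the methods, and the other contrasts came from a fit of 4 genotype groups. The ARF null tumor, alone in its group, entered no contrast of that fit. No expression filter was applied, as the values carry no levels. Precision is limited by the number of arrays. For the difference between genotypes the median standard error was 0.15 over all 22626 probe sets. For the 11 probe sets it was larger, from 0.24 to 0.62. Correlations are Pearson's r, computed in Python 3.11.15 with numpy 2.4.6. The fits were tested on simulated data.

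All 11 probe sets are named, with at most 2 others in each direction by their r with the mean of the 11. Lists of other cell types and pathways need gene names and are not analysed here. The probe sets, lists and tests were chosen with earlier results of these data known. Alternatives covered the variance model, array weights, normalization, RNA quality, zygosity, other tests and leaving out each tumor.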

Additional observations from a re-analysis of the deposited data

Results flagged for a closer look

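The 11 probe sets, their mean and C1q minus the others were examined in each of the 4 groups with 4 to 10 tumors. Of these 52 combinations, 3 had a tumor far from the others by Dixon's criterion, which chance alone meets in about 1 of 20 groups. C1qa stood at -1.93 in ARF heterozygous tumor 13, both among the ARF-deficient tumors (n = 6) and among the ARF heterozygous tumors (n = 5), where the next value was -0.06. Cd14 stood at 3.05 in INK4a heterozygous tumor 15 among the INK4a-deficient tumors (n = 7), where the next value was 0.55. Tumor 13 also had the highest beta-actin 3' to 5' ratio (1.49), and tumor 15 one of -0.39; the part of RNA quality was not tested.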

How the results depend on the processing

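Under no alternative run did any of the 11 probe sets pass the adjusted threshold in ARF-deficient against INK4a-deficient tumors, or in ARF heterozygous against INK4a heterozygous tumors. Of all 22626 probe sets, 0 passed in every run of the first comparison, and 0 to 1820 in those of the second. Between INK4a null and INK4a heterozygous tumors the count was 1 of the 11 (Cd14) with array weights, in a fit that called 3239 of all 22626. It was 0 of the 11 under every other alternative run, where 0 to 423 of all probe sets were called. The median pairwise r lay between 0.68 and 0.81 on leaving out each tumor. On leaving out each tumor, the median difference between the genotypes lay between 0.36 (without INK4a null tumor 1.2) and 0.68 (without INK4a null tumor 7.2); it was 0.33 with the beta-actin ratio as covariate and 0.45 to 0.52 under the other alternatives. No paired analysis was possible because tumor numbers are not shared between groups.

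Directions turned only for differences that no test had called. On leaving out each tumor, the ARF-deficient minus INK4a-deficient difference ranged from -0.00012 to 0.26 for Csf1r (1423593_a_at), from -0.0774 to 0.50 for C1qa and from -0.0846 to 0.64 for Cd14, which was -0.14 with zygosity as a covariate. The INK4a null minus heterozygous difference ranged from -0.62 to 0.13 for Csf1r (1419873_s_at), from -0.0655 to 0.68 for Cd68, from -0.00428 to 0.64 for Adgre1, from -0.63 to 0.0414 for C1qa, from -0.37 to 0.31 for C1qb, from -0.48 to 0.12 for C1qc, from -0.52 to 0.16 for Lyz2 and from -0.27 to 0.27 for Fcer1g. C1qb was 0.11 there after quantile normalization, Cd68 was -0.11 with array weights and Adgre1 was -0.16 with the beta-actin ratio as covariate. The ARF minus INK4a heterozygous difference ranged from -0.24 to 0.0144 for Csf1r (1423593_a_at), from -1.72 to 0.0710 for Cd14 and from -0.47 to 0.16 for C1qa. With that ratio as covariate it was -0.44 for Csf1r (1419873_s_at), -0.26 for Lyz2 and -0.29 for Tyrobp, and with array weights -0.0239 for Tyrobp. The cause was not tested.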
